A study of Camelina sativa with 12 samples.

Results

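Csa18g035240 is a camelina (*Camelina sativa*) gene on chromosome 18 that the study annotates as stress up-regulated Nod 19-like, and it was the 1 gene chosen out of 49932 in the expression matrix because its level was raised in both lines that express *acdS*. The expression values of those lines against the control therefore chose the gene, and its levels in these comparisons are given as a description with no test. Proteins with the Nod 19 domain take their name from a nodulin of legumes, a class of genes transcribed as root nodules form, and from their rise under stress. Their molecular function is not known, and camelina, a relative of *Arabidopsis thaliana*, forms no nodules. The gene *acdS* encodes ACC deaminase, a bacterial enzyme that breaks down the precursor of ethylene, the gaseous hormone that plants make more of under stress.

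Roots of 4 groups with 3 biological replicates each were sequenced, 12 libraries in all, and all plants carried the DH55 background, were 28 days old and had received 192 mM NaCl (15 dS/m) for 21 days. The *35S::acdS* and *rolD::acdS* groups were transgenic DH55, with the *acdS* gene of *Pseudomonas* sp. UW4 under the double CaMV *35S* promoter, which is broadly active, or under the *rolD* promoter of *Agrobacterium rhizogenes*, which is most active in roots. The *P. migulae* 8R6 group was DH55 without a transgene in soil inoculated with this endophytic, ACC deaminase-producing bacterium, and the control was DH55. Soil of the control and of both transgenic groups received the MgSO4 solution without bacteria. The transgenic plants were homozygous for a single insert. The number of lines behind each construct is not given in the sources used here, so that the effect of a promoter and that of a line cannot be told apart, and no group here was without salt.

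Expression is given as CPM, read counts scaled to a common library size, in whole numbers, and the sequencing depth is unknown. The values of a library summed to between 887898 and 947036. The 48099 genes that reached 1 CPM in 3 or more libraries were tested, and Csa18g035240 was among them. The transcript of *acdS* was not analysed here, and neither were markers that define root tissue. As genes of green shoot tissue, 4 that encode chlorophyll-binding proteins were taken from those the study names as raised in 1 of the transgenic lines, so that a higher level there was fixed by their choice. They summed to 5 to 20 CPM in *35S::acdS* libraries, to 4 to 7 CPM in those of *rolD::acdS*, to 3 CPM in each *P. migulae* 8R6-treated and to 4 CPM in each control library.

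Csa18g035240 was expressed in every acdS library at several times the level of any DH55 library. It stood at 24, 16 and 7 CPM in *35S::acdS* replicates 1, 2 and 3, and at 8, 11 and 10 CPM in *rolD::acdS* replicates 1, 2 and 3. In *P. migulae* 8R6-treated roots it stood at 1, 2 and 2 CPM, and in control roots at 1, 1 and 2 CPM. The libraries thus fell into a high set, the 6 of both transgenic lines, and a low set, the 6 of both DH55 groups, with no value between 2 and 7 CPM. In these bulk samples a change in the cells that express a gene and a change in its RNA per cell cannot be told apart.

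**Figure D1:**
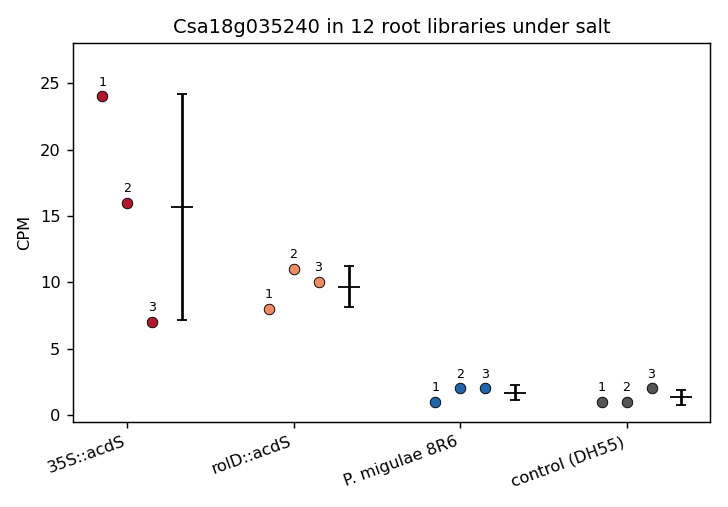
Each point is the CPM of Csa18g035240 in 1 root library, numbered by replicate, and the bars beside them are the group mean ± SD (n = 3). The *35S::acdS* and *rolD::acdS* libraries lie between 7 and 24 CPM, and all *P. migulae* 8R6-treated and control libraries are at 1 or 2 CPM.

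The group means were 15.7 ± 8.50 CPM in *35S::acdS*, 9.67 ± 1.53 CPM in *rolD::acdS*, 1.67 ± 0.577 CPM in *P. migulae* 8R6-treated and 1.33 ± 0.577 CPM in control roots (SD, n = 3). In this order the neighbours *35S::acdS* and *rolD::acdS* overlapped, and so did *P. migulae* 8R6-treated and control roots. The gap between *rolD::acdS* and *P. migulae* 8R6-treated roots was the only one between neighbours at which no libraries overlapped.

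Against the control, the mean of Csa18g035240 was 11.8 times as high in *35S::acdS* and 7.25 times as high in *rolD::acdS* roots. Because the control stands at 1 or 2 steps of 1 CPM, rounding alone leaves these ratios wide. If every value was rounded to the nearest whole number, the ratio lies between 8.27 and 19.4 for *35S::acdS* and between 5 and 12.2 for *rolD::acdS*. On the scale of log2(CPM + 0.5), fitted with limma over all genes and libraries, Csa18g035240 had a log2 fold change of 3.02 for *35S::acdS* and of 2.50 for *rolD::acdS* roots, each with a standard error of 0.39. These were the highest and, by rank from the top, number 3 of the log2 fold changes of all 48099 genes in their comparisons. Every library of the transgenic line exceeded every control library in both comparisons, which held for 3.46% of tested genes in *35S::acdS* and 2.99% in *rolD::acdS*. The gene was chosen on these contrasts, and nothing is read from its rank or from the lack of overlap.

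Against *P. migulae* 8R6-treated roots, which were not used in the choice but were set against the same transgenic libraries, the means were 9.4 times as high in *35S::acdS* and 5.8 times as high in *rolD::acdS*. The log2 fold changes were 2.78 and 2.26, with a standard error of 0.39 each. In both cases all 9 pairs of libraries had the transgenic one higher, which was the case for 4.71% of tested genes in *35S::acdS* and 5.1% in *rolD::acdS*. An adjusted p of 0.05 with an absolute log2 fold change above 0.8 was reached by 0% of tested genes in *35S::acdS* and by 0.00832% in *rolD::acdS* roots in these comparisons (5796 and 6232 genes at an unadjusted p under 0.05 from limma). These values are a description as well, since the acdS libraries entered the choice.

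The contrasts of the bacterial treatment with the control and of the lines with each other were not those on which the gene was chosen, although libraries of each entered the choice, and their p-values are limited by this. In *P. migulae* 8R6-treated roots the level of Csa18g035240 was not distinguishable from the control, with a log2 fold change of 0.25 and a 95% interval from -0.63 to 1.12 (adjusted p = 0.926 from limma over all genes). Every library of both groups stood at 1 or 2 CPM. If these values were rounded to the nearest whole number, the ratio of the means lies between 0.636 and 2.6. A change within these bounds could not be seen. The exact permutation test of 3 against 3 libraries, two-sided, gave p = 1, where 0.1 is the smallest p it allows. Of all genes tested, 0% passed an adjusted p of 0.05 with an absolute log2 fold change above 0.8 in this comparison (2604 genes at an unadjusted p under 0.05 from limma). The 3 control libraries, in which the gene is low, entered the choice.

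Between the lines, Csa18g035240 had the higher mean in *35S::acdS*, and the libraries overlapped, with *35S::acdS* replicate 3 below all *rolD::acdS* libraries and replicates 1 and 2 above them. The log2 fold change of *35S::acdS* over *rolD::acdS* was 0.52, with a 95% interval from -0.35 to 1.39 (adjusted p = 0.799 from limma, exact permutation p = 0.4, two-sided). In this comparison 0.00416% of tested genes passed. Libraries of both lines entered the choice of a gene that is raised in each, so that the test is not independent of it. Without *35S::acdS* replicate 1 the log2 fold change came to 0.14, and without replicate 3 to 1.00, so that single libraries set the size of this difference.

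**Figure D2:**
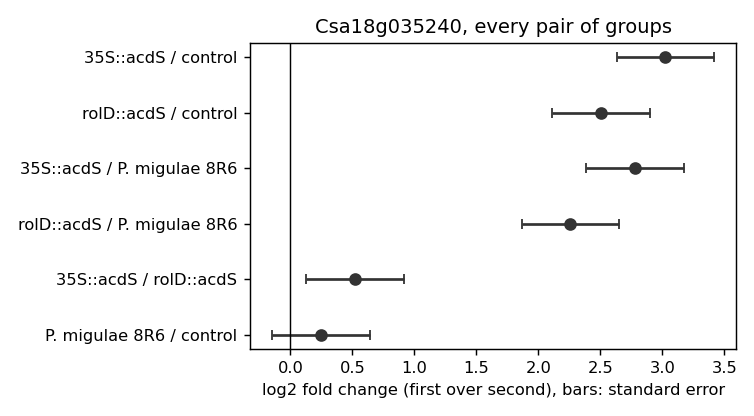
The points are the log2 fold changes of Csa18g035240 between every pair of groups, the group named before the slash over the one after it, with the standard error from limma as bars. The 4 comparisons of a transgenic line with a DH55 group lie between 2.26 and 3.02, against 0.52 between the lines and 0.25 between the DH55 groups.

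The replicates of Csa18g035240 had a wider range in *35S::acdS* than in *rolD::acdS* roots, a difference that was not tested. The highest library was 3.43 times the lowest in *35S::acdS* and 1.38 times in *rolD::acdS*. Within *35S::acdS* the SD on the log2 scale was 0.87, where 19009 genes within 2-fold of the same group mean had a median SD of 0.16, and 99.2% of them had a smaller one. Within *rolD::acdS* it was 0.22, where 21564 such genes had a median of 0.17, and 64.6% were smaller. In *P. migulae* 8R6-treated and control roots the SD was 0.43 in both, and at 1 or 2 CPM it cannot be separated from the step between whole numbers. Some other genes that the study lists as higher in both lines had a wide range in *35S::acdS* too. As a percentage of the mean, the SD there was 54.3% for Csa18g035240 and 58.8% for Csa05g091890. It was 81.1% for Csa06g020990, 65.0% for Csa16g005800, 60% for Csa17g080380 and 25.5% for Csa10g019050. The remaining listed genes that were tested stood at 0 to 3 CPM in these libraries.

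The sum of the chlorophyll-binding genes and the level of Csa18g035240 ran in opposite order over the *35S::acdS* replicates, at 5, 10 and 20 CPM for the sum and 24, 16 and 7 CPM for Csa18g035240. The members chosen as raised in *35S::acdS* carried this order, with Csa04g046670 at 2, 4 and 7 CPM, Csa05g020850 at 2, 4 and 9 CPM and Csa06g029390 at 1, 2 and 3 CPM. Csa01g026130, chosen as raised in *rolD::acdS*, was at 0, 0 and 1 CPM in the *35S::acdS* libraries, at 1, 1 and 2 CPM in those of *rolD::acdS* and at 0 in every DH55 library. In the *rolD::acdS* replicates the order was not opposite, with sums of 4, 6 and 7 CPM against 8, 11 and 10 CPM for Csa18g035240. The part of these genes in the spread of Csa18g035240 was not tested.

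The genes Csa02g069860, on chromosome 2, and Csa11g098670, on chromosome 11, carry the same annotation as Csa18g035240, and of these only Csa11g098670 has an *A. thaliana* ortholog (AT5G61820) in the study's annotation. Both were at or near 0 in these roots. Csa02g069860 was at 3, 1 and 1 CPM in the libraries of *35S::acdS* and at 1, 1 and 2 CPM in those of *rolD::acdS*, and was listed at 0 in all 3 *P. migulae* 8R6-treated and all 3 control libraries. It thus had the same high and low sets of libraries as Csa18g035240, and the study lists it as raised in both lines against the control. With 1 group at 0, no fold change is given.

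Csa11g098670 was at 1 CPM in each *35S::acdS* and each *rolD::acdS* library, at 0, 1 and 1 CPM in *P. migulae* 8R6-treated and at 0 in each control library. Unlike Csa02g069860, it was thus listed above 0 in some libraries of DH55 plants that had received the bacterium. This difference is 1 step of the whole numbers, and a listed 0 may be a low level that was rounded down. The study lists it for *rolD::acdS* only, against the same control libraries, and its values are given as a description.

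Both relatives passed the filter of 1 CPM in 3 or more libraries only through the acdS libraries, in which they are higher. The comparison of the lines is therefore given as a description with no test. The log2 fold change of *35S::acdS* over *rolD::acdS* was 0.16 for Csa02g069860, with a 95% interval from -0.59 to 0.92. It turned to -0.25 without *35S::acdS* replicate 1, the library at 3 CPM. For Csa11g098670, at 1 CPM in all 6 acdS libraries, the log2 fold change was 0. If every value was rounded to the nearest whole number, the ratio of the means lies between 0.333 and 3 for Csa11g098670. For Csa02g069860 it lies between 0.636 and 2.6, and a difference within these bounds could not be seen. How reads that match several copies of a gene were counted is not given in the sources used here, so that the split of reads among the 3 Nod 19 genes is uncertain.

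**Figure D3:**
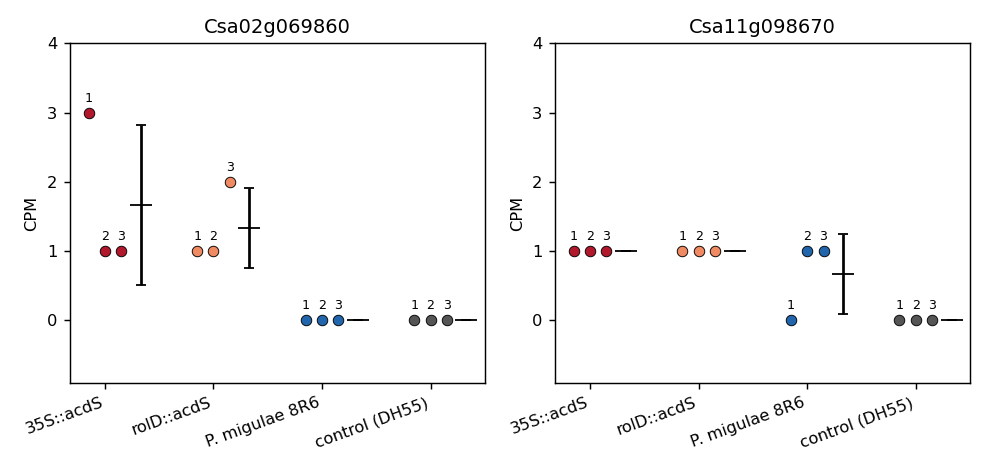
CPM of the other genes with the Nod 19 annotation in each of the 12 libraries, numbered by replicate, with the group mean ± SD beside the points. Csa02g069860 is above 0 in the 6 libraries of the transgenic lines, and Csa11g098670 in these and in *P. migulae* 8R6 replicates 2 and 3.

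Over the whole matrix, 104 of the 48099 tested genes (0.216%) had all 6 acdS libraries above all 6 DH55 libraries, as Csa18g035240 did, and 158 (0.328%) had all 6 below. For 70 of the 104 the lowest acdS library was 1 CPM above the highest DH55 library. For Csa18g035240 the lowest acdS library, at 7 CPM, was 3.5 times the highest DH55 library, at 2 CPM. Among the genes of this pattern that were not at 0 in DH55, the median of this ratio was 1.08, and Csa18g035240 had the largest. The libraries are those on which the gene was chosen, and nothing is read from its place in this set. The balance of the counts turned with the scaling, to 491 genes above and 168 below with median-of-ratios size factors, and to 259 above and 226 below with libraries scaled to equal totals. Csa18g035240 was among the genes above each time, with ratios of 3.49 and 3.47.

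**Figure D4:**
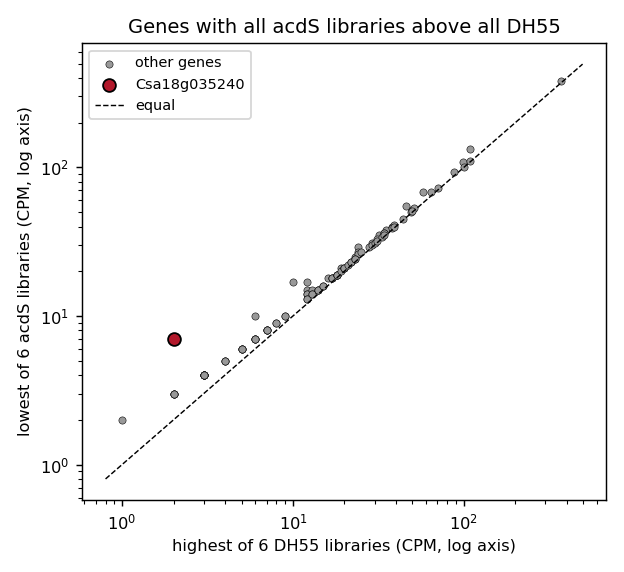
Each point is a gene whose 6 acdS libraries all exceed its 6 DH55 libraries, with the highest DH55 library on the horizontal and the lowest acdS library on the vertical axis, both in CPM on log axes, and 2 genes at 0 in DH55 left out. Most genes lie just above the dashed line of equal values, and Csa18g035240 stands off it, at 7 against 2 CPM.

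The genes with the 2 identifiers on each side of Csa18g035240 on chromosome 18 did not show its pattern in these values. Csa18g035220 was listed at 0 in all 12 libraries. Csa18g035230 was at 1, 1 and 1 CPM in *35S::acdS*, at 1, 2 and 2 CPM in *rolD::acdS*, and 1 CPM in every *P. migulae* 8R6-treated and control library. Csa18g035250 was at 2 CPM in each *35S::acdS* library, at 2, 1 and 2 CPM in *rolD::acdS*, at 2, 1 and 1 CPM in *P. migulae* 8R6-treated and at 1, 2 and 2 CPM in control libraries. The next gene on that side, Csa18g035260, ranged from 14 to 16 CPM in the acdS libraries, from 12 to 13 CPM in *P. migulae* 8R6-treated and from 14 to 16 CPM in control libraries. Its libraries overlapped between each transgenic line and the control. At 1 or 2 CPM in whole numbers, a smaller difference in Csa18g035230 or Csa18g035250 could not be seen.

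Of the 10 identifiers on each side, 19 genes were tested, and 0 of them had all acdS libraries above or all below the DH55 libraries, against 0.216% and 0.328% of all tested genes. With shares this small, 0 of 19 does not set these genes apart from the others, and nothing is read from it. Among them, absolute log2 fold changes against the control reached 0.28 in the *35S::acdS* and 0.50 in the *rolD::acdS* line. Csa18g035420, shortly past this span, is among the genes most alike in pattern that are given below. The gene identifiers are read here as following the order along the chromosome, and no coordinates were used.

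**Figure D5:**
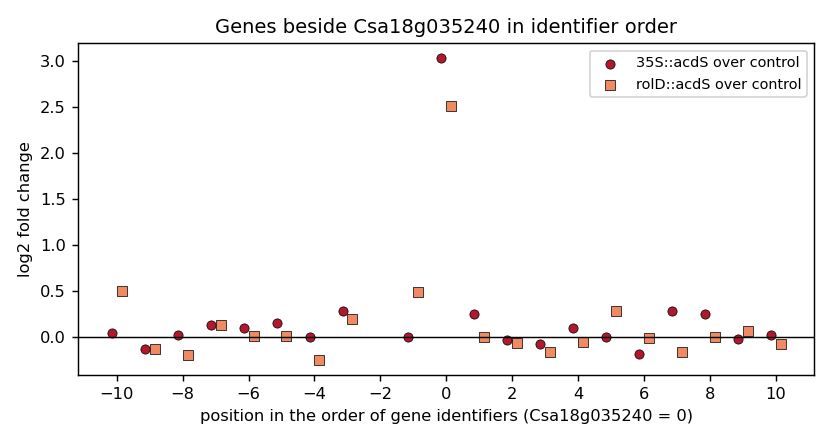
Log2 fold changes against the control in *35S::acdS* (circles) and *rolD::acdS* (squares) for the 10 gene identifiers on either side of Csa18g035240, which is at position 0, with circles and squares set slightly apart. Csa18g035240 is at 3.02 and 2.50, and the largest absolute value among its tested neighbours is 0.50.

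Csa18g035240 and Csa02g069860 are among 9 genes that stand as higher in both of the separate lists of the study for the transgenic lines, and 8 of these were tested here. A shorter list of shared genes in the study was not used. The genes were chosen on these libraries, so their direction is not independent evidence. Against the control their log2 fold changes had a median of 1.96 for *35S::acdS* and of 1.71 for *rolD::acdS* roots, and 0 over all tested genes in both. Against the control, *P. migulae* 8R6-treated roots had a median of 0.04 for the 8 genes, with 4 of them above 0. In that comparison 0 of the 8 had all treated libraries above all control libraries, which 1.95% of tested genes had, and 0 passed the test with limma (0% of all tested genes, as given above).

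Of these genes, Csa10g019050, a cellulose synthase-like G gene of a family that makes cell wall polysaccharides, was the 1 of the 8 in which all libraries of *35S::acdS* were above all those of *rolD::acdS*, which held for 3.58% of tested genes. The log2 fold change between the lines was above 0 for 5 of the 8, Csa18g035240 among them. Csa10g019050 was at 25, 17 and 16 CPM in *35S::acdS*, at 10, 10 and 14 CPM in *rolD::acdS*, 5, 3 and 2 CPM in *P. migulae* 8R6-treated and 6, 4 and 4 CPM in control libraries. It was picked for this remark after its values were seen.

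In *35S::acdS* roots, replicate 1 was the highest library for 7 of the 8 listed genes, Csa18g035240 among them, and for 24.5% of all tested genes. Csa06g020990, a glutamine-dependent asparagine synthase, was at 71, 20 and 19 CPM in the *35S::acdS* replicates, and Csa17g080380, a GH3 gene of the family that conjugates auxin to amino acids, at 8, 5 and 2 CPM. The exception was Csa13g014240, of unknown function, at 0, 1 and 3 CPM. Without replicate 1, the *35S::acdS* mean of Csa18g035240 was 11.5 CPM, 8.63 times that of the control. The part of this library in the other listed genes was not tested.

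By Pearson's r of log2(CPM + 0.5) over the 12 libraries, the genes with the pattern most like that of Csa18g035240, out of 32861 with a mean of at least 5 CPM, were Csa19g010540 (r = 0.922), Csa18g035420 (0.921), Csa19g003300 (0.918), Csa17g030940 (0.908) and Csa17g010600 (0.906). These values describe the libraries, which are shared by all genes, and were picked as the highest of many. The likeness was in the shape of the pattern over the libraries and not in the size of the differences. Over the 5 genes the mean of the acdS libraries was 1.11 to 1.29 times that of the DH55 libraries, against 8.44 times for Csa18g035240.

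Csa19g010540, the most alike, was at 61, 56 and 53 CPM in *35S::acdS*, at 50, 56 and 54 CPM in *rolD::acdS*, 44, 44 and 42 CPM in *P. migulae* 8R6-treated and 45, 46 and 49 CPM in control libraries. Its acdS libraries were thus all above its DH55 libraries, and *35S::acdS* replicate 1 was again the highest. Csa18g035420 is on the same chromosome as Csa18g035240, and its identifier lies shortly past Csa18g035370, the last of the 10 identifiers looked at on that side. It was at 14, 13 and 12 CPM in *35S::acdS* and at 11, 12 and 14 CPM in *rolD::acdS* libraries. In *P. migulae* 8R6-treated libraries it was at 10, 10 and 11 CPM, and in control libraries at 9, 9 and 10 CPM. Replicate 1 of *rolD::acdS* thus equalled *P. migulae* 8R6 replicate 3. With rank correlation in place of Pearson's, 3 of the 5 genes were among the 20 most alike.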

How the data were processed

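Total RNA of camelina roots was sequenced from 12 libraries in 4 groups of 3 biological replicates. Trimming by the authors used Trimmomatic and alignment used STAR, against release 100 of the camelina reference together with NCBI transcripts. The authors turned counts per gene into CPM by library size, and the authors used DESeq and edgeR in later steps. Versions are not given in the sources used here. The deposited values carry the unit score here: the sheet name says CPM, all values (100%) are whole numbers, and rounding by the authors is inferred. They were not taken as read counts, so no count test was run. Depth is unknown.

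Genes with at least 1 CPM in at least 3 libraries were kept, log2(CPM + 0.5) was fitted with limma 3.58.1 in R 4.3.3 (all 12 libraries, 4 group means, trend in the prior variance), with Benjamini-Hochberg adjustment over all 48099 genes. The thresholds of a call were 0.05 for the adjusted p and 0.8 for the absolute log2 fold change. The fit was tested on simulated data. Further tables and figures used Python 3.11.15, numpy 2.4.6, pandas 2.3.3, scipy 1.17.1 and matplotlib 3.10.9. The study calls the replicates biological, and how many plants each holds is not given in the sources used here.

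Csa18g035240, the gene lists and the tests were chosen with earlier results of these data known. The rule for naming genes covered Csa18g035240, the genes with the same annotation, the 5 most alike in pattern, 2 identifiers on each side, the 9 genes in both of the separate lists of the study for the lines, of which Csa04g065150 was not analysed here, and 4 chlorophyll-binding genes (Csa04g046670, Csa05g020850, Csa06g029390, Csa01g026130) that the study names as raised in a transgenic line. The wider span of 10 identifiers and the counts of genes with all acdS libraries above or below all DH55 libraries were chosen after seeing the data. The identifiers of the matrix matched no entry of the RefSeq gene table given, so no coordinates or sequences were used. The alternatives tried were other pseudocounts (0.1, 1), filters (none, mean of 5 CPM), scalings and priors, fits of each pair of groups alone, the replicate block, calls without the fold change threshold, and the omission of each library in turn. A second sheet with column names holds no values.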

Additional observations from a re-analysis of the deposited data

How the results depend on the processing

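The log2 fold changes of Csa18g035240 kept their sign, and the comparisons that were tested kept their side of the threshold, under all alternatives. With all libraries they ranged from 2.72 to 3.36 for *35S::acdS* and from 2.21 to 2.83 for *rolD::acdS* against the control, from 2.52 to 3.05 and from 2.01 to 2.52 against *P. migulae* 8R6-treated roots, from 0.51 to 0.53 between the lines and from 0.19 to 0.31 for *P. migulae* 8R6-treated roots against the control. Leaving out 1 library gave 2.65 to 3.50, 2.38 to 2.75, 2.40 to 3.25, 2.01 to 2.38, 0.14 to 1.00 and 0.12 to 0.49 in the same order. Adjusted p-values over the alternatives ran from 0.586 to 0.995 between the lines and from 0.668 to 1 for *P. migulae* 8R6-treated roots against the control (limma). For Csa02g069860 between the lines, leaving out 1 library gave -0.25 to 0.41, negative without *35S::acdS* replicate 1. No fold change of the other Nod 19 genes against the control could be given, since the control is at 0, and neither gene reached a mean of 5 CPM.

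The number of genes called depended on the settings. As reported it was 0 for (a) *P. migulae* 8R6-treated roots against the control, 0 for (b) *35S::acdS* against the control, 2 for (c) *rolD::acdS* against the control, 2 for (d) *35S::acdS* against *rolD::acdS*, 0 for (e) *35S::acdS* against *P. migulae* 8R6-treated and 4 for (f) *rolD::acdS* against *P. migulae* 8R6-treated roots. Fits of only the groups compared gave 24, 38, 21, 39, 74 and 44, and no trend in the prior variance gave 2, 6, 4, 8, 9 and 9, in this order. A pseudocount of 0.1 gave 1, 3, 3 and 15 for a, d, e and f. A pseudocount of 1 gave 0 in all 6. The filter at a mean of 5 CPM gave 0, 0, 2 and 24 for c, d, e and f, and robust empirical Bayes 0, 0, 2 and 27. Equal library totals gave 0, 0 and 24 for c, d and f, median-of-ratios size factors 0, 0 and 11, and quantile normalization and no filter 15 and 10 for f. Leaving out 1 library gave 0 to 4, 0 to 6, 0 to 7, 0 to 10, 0 to 22 and 0 to 51. The cause was not tested.

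Same-numbered libraries correlated at r = -0.14 to 0.40 in their deviations from the group means (median 0.11, above 0.1 in 10 of 18 pairs), and different-numbered ones had a median of -0.04, above 0.1 in 7 of 36 pairs. Since not every same-numbered pair exceeded 0.1 and the labels name no shared batch, the numbers were not taken as a pairing, although same-numbered pairs lay higher. With the replicate block, 0 genes were called in a to e and 1 in f, and no call on Csa18g035240 changed.

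With rank correlation, 9 of the 20 genes most like Csa18g035240 were shared with those by Pearson's r. Genes with all acdS libraries above all DH55 libraries numbered 491 (168 below) with median-of-ratios size factors and 259 (226 below) with equal totals, against 104 (158 below) as deposited, scalings that were chosen after seeing the data. At 1 or 2 CPM in DH55 roots, the step of the whole numbers limits every ratio.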

Other observations

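Besides Csa02g069860, Csa17g018450 was listed at 0 in all 6 DH55 libraries and above 0 in all 6 libraries of the transgenic lines, at 1 CPM in each *35S::acdS* library and at 2, 1 and 1 CPM in those of *rolD::acdS*. The study annotates it as a cytochrome P450, a family of oxidizing enzymes, and lists it for *rolD::acdS*. These were the 2 genes of this kind among those tested.

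The gene with the most opposite pattern to Csa18g035240, out of 32861 with a mean of at least 5 CPM, was Csa09g002670 (Pearson's r = -0.964 over the 12 libraries, the lowest of many and given with no test). It was at 22, 23 and 24 CPM in *35S::acdS*, at 24, 23 and 23 CPM in *rolD::acdS*, 28, 26 and 26 CPM in *P. migulae* 8R6-treated and 30, 29 and 27 CPM in control libraries, so that all acdS libraries lay below all DH55 libraries. Both genes were named after their values were seen.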
